A study of Mus musculus with 8 samples.

Results

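The 8 genes examined here are those that write, copy and remove cytosine methylation in DNA: Dnmt1, Uhrf1, Dnmt3a, Dnmt3b, Dnmt3l, Tet1, Tet2 and Tet3. They were found by gene symbol in a table of 14853 genes, and all 8 had a row. The table compares undifferentiated spermatogonia, among which are the stem cells of sperm production, from mice whose Tert gene is CreER/flox (4 samples) or CreER/+ (4 samples). Mice of both groups were C57BL/6, were 8 to 12 weeks old and also carried a Rosa lsl-Tdtomato allele, a red reporter that Cre switches on. All were given tamoxifen, which activates CreER, and cells with high MCAM, no KIT and red fluorescence were sorted on day 7. Because CreER sits at Tert, the telomerase reverse transcriptase gene, every control also carries that altered allele, and no group has 2 unaltered Tert alleles. The labels do not say whether the samples of a group came from separate mice, so the p-values measure the spread between samples, which may be technical.

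DNA methylation in mammals is found mostly at cytosines followed by guanine (CpG sites). DNMT1 copies it onto the new strand after replication, guided by UHRF1, which recognises the hemimethylated site. DNMT3A and DNMT3B add methyl groups to unmethylated DNA, with DNMT3L as a partner without catalytic activity, and TET enzymes oxidise methylcytosine, a step toward its removal. In the male germline, methylation is erased in the embryo and laid down again before birth, a step that needs DNMT3A and DNMT3L, and dividing spermatogonia then have to maintain it.

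The start sites of these genes differ in their density of CpG sites, where DNA methylation is mostly found. RefSeq (GRCm38.p6) gives 15 promoter windows for the 8 genes, each of 300 bases, 250 before and 50 after a start site. The stretches below are the 120 bases just before 1 annotated start of a gene with many CpG sites (Tet2, Dnmt3a, Dnmt3b) or few (Dnmt3l), read 5′ to 3′ on the gene's strand with every CpG in capitals. They lie outside annotated exons, at chr3:133544391-133544510 on the minus strand for Tet2, and on the plus strand at chr12:3806860-3806979 for Dnmt3a, chr2:153649329-153649448 for Dnmt3b and chr10:78042167-78042286 for Dnmt3l.
Tet2: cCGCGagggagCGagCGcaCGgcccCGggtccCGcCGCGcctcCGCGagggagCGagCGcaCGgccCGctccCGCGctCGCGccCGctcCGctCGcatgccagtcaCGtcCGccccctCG
Dnmt3a: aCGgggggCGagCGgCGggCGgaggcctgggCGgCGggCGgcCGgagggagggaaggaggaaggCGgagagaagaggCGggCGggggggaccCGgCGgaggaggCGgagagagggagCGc
Dnmt3b: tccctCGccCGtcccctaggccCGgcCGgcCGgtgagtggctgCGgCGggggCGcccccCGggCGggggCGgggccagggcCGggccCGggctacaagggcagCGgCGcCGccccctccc
Dnmt3l: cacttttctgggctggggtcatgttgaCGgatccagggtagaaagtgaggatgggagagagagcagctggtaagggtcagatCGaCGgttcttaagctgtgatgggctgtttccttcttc

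These stretches hold 25 CpG sites for Tet2, 16 for Dnmt3a, 16 for Dnmt3b and 3 for Dnmt3l. Over full windows, the 3 starts of Dnmt3l had 3, 4 and 6 CpG sites, below the median of 7.00 over all 32851 windows of the genome. The single Tet2 window had 57, more than 99.8% of all windows. Dnmt1 had windows of both kinds, with 2 CpG sites at its most upstream start and 12 and 33 at the other two, and Uhrf1 had 12 and 33. Which of these starts the spermatogonia used was not tested, since the table has 1 row per gene.

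**Figure D1:**
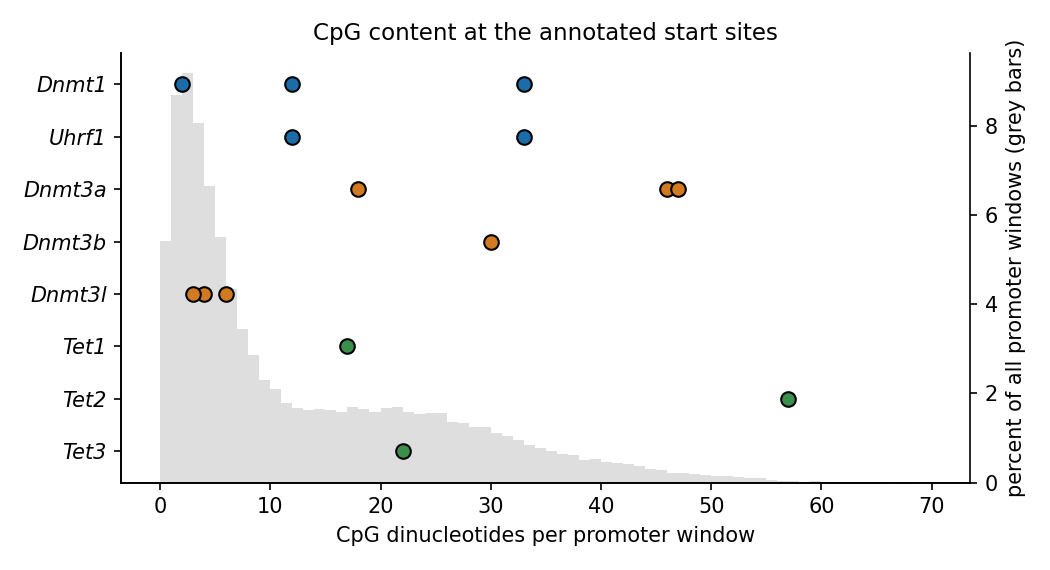
CpG dinucleotides (x axis) in each 300-base RefSeq promoter window of the 8 genes (points, 1 per annotated start; blue, maintenance; orange, de novo; green, TET), over the distribution of all windows (grey bars, right axis, percent). The 3 Dnmt3l windows lie at 3 to 6 CpG sites and the Tet2 window at 57.

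Dnmt1 and Uhrf1 are known as genes induced when cells enter S phase, a programme driven by E2F factors. A search of both strands of the windows for TTTCCCGC, TTTCGCGC, TTTGCCGC and TTTGGCGC, the forms of the E2F consensus used here, found matches only in windows of Dnmt1 and Uhrf1 among the 8 genes. The matches lay in 2 of the 15 windows, against 2.26% of all windows. Every form searched contains a CpG, and both matching windows had 33 CpG sites, beside the median of 7.00 over all windows. The rate in windows of like CpG content was not computed, so these shares cannot be compared directly. A match is a description of the letters and not a measured binding site. The 3 matches follow, motif in capitals, at chr9:20952825-20952852 and chr9:20952574-20952600 (minus strand, Dnmt1) and chr17:56304118-56304145 (plus strand, Uhrf1). They begin 219 bases before and at base 34 after a Dnmt1 start, and 185 bases before a Uhrf1 start.
Dnmt1, before the start: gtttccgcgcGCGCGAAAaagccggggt
Dnmt1, after the start: cggggcagcgTTTGGCGCgggctgtgc
Uhrf1: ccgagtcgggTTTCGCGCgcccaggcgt

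The values below come from the authors' comparison. They are a mean normalized count over all libraries and a log2 fold change of CreER/flox over CreER/+, written as value ± standard error (SE). Values of single libraries were not analysed here, so no spread between samples can be given for a level. The direction is read from the name of the table, flox against WT, although the labels have no wild-type group. Tert itself did not check it: the authors' deposited table has it at 0.29 ± 0.26 (adjusted p 0.595), and the labels do not say which part Cre removes. A gene is called changed at an adjusted p under 0.05. All 11 markers of undifferentiated spermatogonia that were checked had mean counts of 66.1 to 5143 in the authors' deposited table. They include Mcam (4854), whose protein was used to sort the cells, so its level is no separate evidence of identity. The 4 measured Sertoli cell markers lay at 16.2 to 24.3. Other markers from outside the germline reached higher, with 3 endothelial markers at 32.2 to 106 and 4 erythroid markers at 30.1 to 107. These marker counts are not divided by transcript length, so they do not rank the levels of different genes. The 2 measured smooth muscle markers lay at 19.5 and 89.0, the 1 Leydig cell marker at 46.4 and the 1 leukocyte marker at 13.0. For the Sertoli genes Amh and Cldn11 no row was found. Of later germ cell stages, 6 markers of differentiating spermatogonia lay at 19.9 to 681, with 0 called. Kit, whose protein the sort selected against, was among them at 93.1. The 6 spermatocyte markers lay at 41.6 to 2333. Spermatid markers were present at 21.8 to 1924, and 3 of 8 were called lower in the flox samples, with a median log2 fold change of -1.18 in the authors' deposited table. Also called lower in the authors' deposited table were 1 of 6 spermatocyte markers (Piwil1, 0.60-fold, adjusted p 1.11e-04) and 1 of 2 measured smooth muscle markers (Actg2, 0.44-fold, adjusted p 0.0340), both named after their values were seen. Their part in the values below was not tested.

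None of the 8 genes was called changed. In all, 796 genes of the authors' deposited table were called, which is 5.36%, 1.94% higher and 3.42% lower, and 19.7% had an unadjusted p under 0.05 in the DESeq2 Wald test. Of the 8 methylation genes, 0 had an unadjusted p under 0.05. Their estimates were above 0 for 4 genes and below 0 for 4, with a median log2 fold change of -0.046 beside 7.1e-04 over all genes. All 8 of the 95% intervals, computed as the log2 fold change with a normal quantile of its SE, contained 0. A p that misses the threshold does not show that expression was equal, so the interval is given for each gene.

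**Figure D2:**
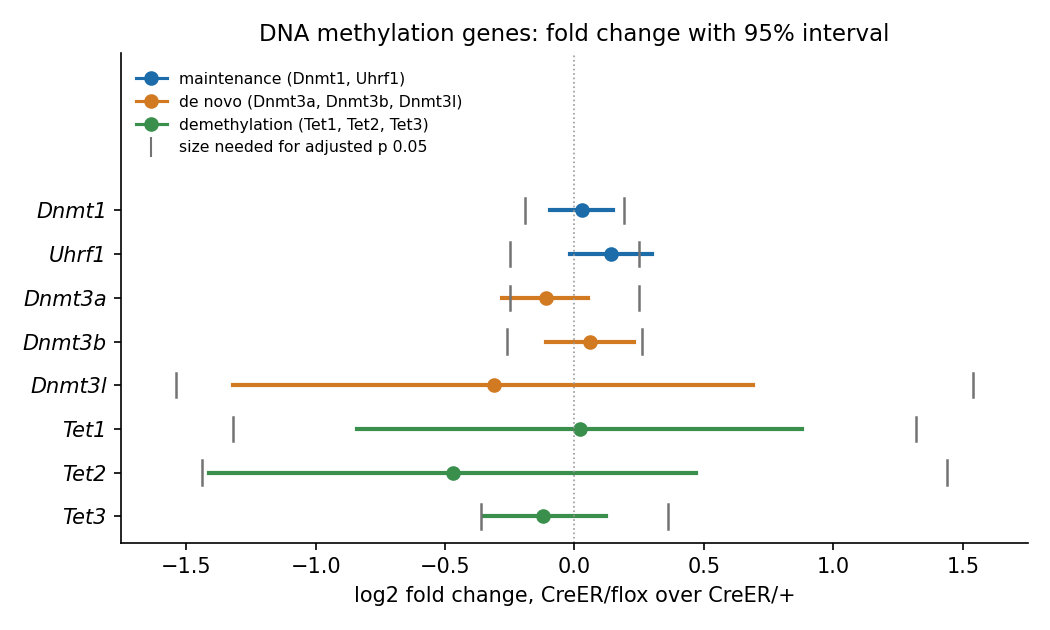
Log2 fold change of CreER/flox over CreER/+ (x axis; points) with its 95% interval (bars) for each gene, coloured by role. Grey ticks mark the size at which the estimate of that gene, with its SE, would have reached an adjusted p of 0.05. All 8 intervals cross 0 (dotted line), and those of Dnmt3l, Tet1 and Tet2 are the widest.

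The maintenance genes were the most abundant of the set and the most precisely measured. Dnmt1 (Entrez gene 13433, chromosome 9, 20907206 to 20959888, build GRCm38) stood at 0.030 ± 0.063 in the authors' deposited table, at a mean count of 4636 and an adjusted p of 0.858. Its interval ran from 0.94-fold to 1.11-fold, and an estimate of 1.14-fold would have been called at its SE. Uhrf1 (Entrez gene 18140, chromosome 17, 56303337 to 56323486) had the smallest p of the 8 genes in the authors' deposited table (0.0767, adjusted to 0.317), at a mean count of 2445 and 0.14 ± 0.082. The interval of Uhrf1 ran from 0.99-fold to 1.24-fold, and its Wald statistic exceeded in size those of 75.8% of all genes. Uhrf1 carries an added uncertainty: 18.9% of the 50-base words of its longest GENCODE M21 transcript also occur in transcripts of other genes, mainly the processed pseudogene Gm5648 on chromosome X. The treatment of such reads is not stated in the labels.

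The 2 catalytic de novo enzymes had small SEs and estimates on opposite sides of 0, and both 95% intervals held 0. Dnmt3a (Entrez gene 13435, chromosome 12, 3801559 to 3914443) stood at -0.11 ± 0.084 in the authors' deposited table (mean count 1489, adjusted p 0.496), with an interval of 0.82-fold to 1.04-fold. Dnmt3b (Entrez gene 13436, chromosome 2, 153649411 to 153687730) stood at 0.059 ± 0.085 in the authors' deposited table (mean count 677, adjusted p 0.772), with an interval of 0.93-fold to 1.17-fold. The difference between the 2 genes was not tested, because the table does not hold the covariance of their estimates. Dnmt3b shares 11.5% of its 50-base words with Dnmt3c, its rodent-specific neighbour that methylates young transposons in the fetal germline. No row was found for Dnmt3c, and whether its reads entered the count of Dnmt3b was not tested.

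Dnmt3l, the non-catalytic partner, was barely above the smallest mean count in the table, which was 10.4. Its row (Entrez gene 54427, chromosome 10, 78042287 to 78063622) stood at -0.31 ± 0.51 in the authors' deposited table, at a mean count of 16.4 and an adjusted p of 0.806. The interval ran from 0.40-fold to 1.61-fold. An estimate under 2.90-fold in either direction would not have been called for Dnmt3l at its SE. The Dnmt3l exons overlap those of Aire on the opposite strand by 67 bases, 2.24% of their merged length, and the labels do not state the strand setting of the count.

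Of the TET genes, only Tet3 was abundant enough for a narrow interval. Tet3 (Entrez gene 194388, chromosome 6, 83362373 to 83457208) stood at -0.12 ± 0.12 in the authors' deposited table (mean count 456, adjusted p 0.651), with an interval of 0.78-fold to 1.08-fold. That sign turned, at 0.039, when the dependence of fold changes on GC content, abundance and length of the transcript was removed. Tet1 (Entrez gene 52463, chromosome 10, 62804570 to 62887469), at a mean count of 31.4, stood at 0.021 ± 0.44 in the authors' deposited table, with an adjusted p of 0.989. Tet2 (Entrez gene 214133, chromosome 3, 133463677 to 133545136), at 19.4, had the lowest estimate of the 8 genes, at -0.47 ± 0.48 in the authors' deposited table, with an adjusted p of 0.655. The intervals were 0.56-fold to 1.84-fold for Tet1 and 0.38-fold to 1.39-fold for Tet2.

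Removing that trend also moved other estimates by over 1.5 times, with no call. Dnmt1 went from 0.030 to 0.084, Dnmt3a from -0.11 to -0.0095 and Dnmt3l from -0.31 to -0.099 on the log2 scale. Tet1 went from 0.021 to 0.29 and Tet2 from -0.47 to -0.18, while Uhrf1 stood at 0.14 both ways and Dnmt3b at 0.059 and 0.088. The shifts of Dnmt3a and Tet3 were larger than their SEs, and those of Dnmt3l, Tet1 and Tet2 were smaller.

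The 8 genes thus fell into classes of unequal precision. The 5 counted at 400 or more had SEs of 0.063 to 0.12 in the authors' deposited table and interval bounds within 0.78-fold and 1.24-fold. With these SEs, they would have been called at estimates of 1.14-fold to 1.28-fold. The 3 counted under 50 had SEs of 0.44 to 0.51 in the authors' deposited table and bounds from 0.38-fold to 1.84-fold. They would have needed estimates of 2.49-fold to 2.90-fold. These are sizes of the estimate and not of the true change. Of all genes counted at 400 or more, 5.65% were called, and of all those under 50, 3.06%. The SEs were like those of other genes of the same abundance, at 0.84 (Dnmt3b) to 1.15 (Tet1) times the median SE of the 200 genes nearest in mean count.

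**Figure D3:**
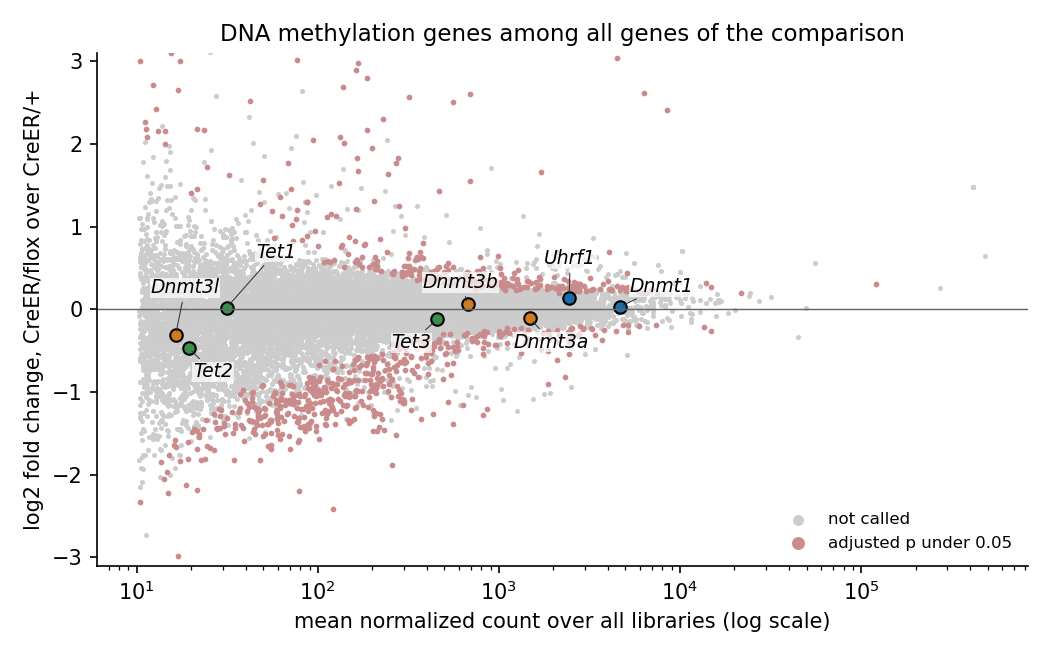
Mean normalized count (x axis, log scale) against log2 fold change of CreER/flox over CreER/+ (y axis) for all genes of the table (small points; red, adjusted p under 0.05), with the 8 methylation genes as large points coloured by role. The 8 points lie among the grey, uncalled genes of their abundance, Dnmt3l and Tet2 at the low end and Dnmt1 at the high end. The axis leaves out 6 genes with log2 fold changes beyond 3.1 in size.

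Levels can be set against each other only per transcript length. Per kb of the longest annotated transcript, Dnmt1 had a mean normalized count of 789.8 and Uhrf1 of 682, above 96.1% and 95.2% of the genes of the table with a known length. Dnmt3b (157) and Dnmt3a (154) followed with nearly equal counts per kb, then Tet3 (41.8) and Dnmt3l (9.02). Tet1 (2.19) and Tet2 (2.12) were lowest, above 0.768% and 0.703% of those genes. With all annotated exons merged as the length the order was the same, but Dnmt3b (133 per kb) lay farther above Dnmt3a (89.5 per kb) and Tet1 (2.03) farther above Tet2 (1.15). Neighbours in this order cannot be said to differ, because the spread over samples was not analysed here and the length of the transcripts in use is not known.

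Within each family the levels were uneven. Tet3 held 90.7% of the count per kb of the 3 TET genes by longest transcript, and 89.6% with merged exons. In the DNMT3 family, Dnmt3l held 2.82% and 2.42% by these lengths, while Dnmt3a and Dnmt3b shared the rest. All libraries, of both genotypes, enter these shares, and in sorted cells a low mean count cannot tell a low level in every cell from expression in few cells.

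**Figure D4:**
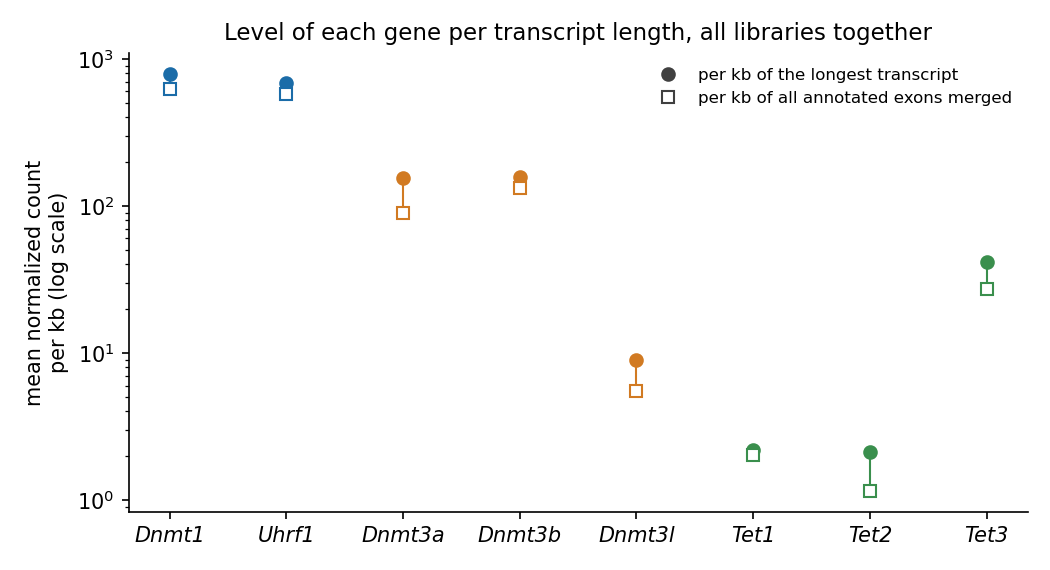
Mean normalized count per kb (y axis, log scale) of each gene over all libraries, by the longest annotated transcript (filled circles) and by all annotated exons merged (open squares), coloured by role. Dnmt1 and Uhrf1 lie at the top, and Tet3 lies above Tet1 and Tet2 with either length.

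Other genes of the pathway were examined in 8 lists by role, 87 genes in all, of which 4 were called. Of 10 measured partners of maintenance methylation, 2 were called higher (1.94% of all genes were), and 9 had estimates above 0, with a median log2 fold change of 0.15 beside 7.1e-04 over all genes. Neither call held with the trend removed, a t distribution or a wider null SD. Of all 14853 genes, the t distribution called 0 and the null SD 5. Hells, a nucleosome remodeller needed for normal DNA methylation, rose 1.21-fold in the authors' deposited table (0.27 ± 0.072, adjusted p 0.00980, mean count 4770.4). Pclaf, a PCNA-binding factor that UHRF1 ubiquitinates to recruit DNMT1, rose 1.46-fold in the authors' deposited table (0.55 ± 0.16, adjusted p 0.0207, mean count 168). A further 4 partners, named after their values were seen, had an unadjusted p under 0.05 by the DESeq2 Wald test with no call. With the called genes, 6 of the 10 had such a p, beside 19.7% of all genes. The 4 were Cdca7 (0.16), Hdac2 (0.16), the replicative ligase gene Lig1 (0.15) and the sliding clamp gene Pcna (0.20), all log2 fold changes of the authors' deposited table. Dnmt1, which acts with these proteins at replication forks, stood at 0.030, and Uhrf1 at 0.14. Whether Dnmt1 differs from its partners was not tested.

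Factors that guide de novo methylation had estimates on both sides of 0, 6 above and 7 below, with a median of -0.035. The only one called was Ehmt2, which encodes the histone H3K9 methyltransferase G9a, and it was 0.85-fold in the flox samples of the authors' deposited table (-0.23 ± 0.062, adjusted p 0.01003, mean count 2899). For Spocd1 and Dnmt3c of this list no row was found. Of the 11 genes of methyl donor supply reported here, 8 had estimates above 0, with a median of 0.041, and 0 were called by the DESeq2 Wald test. In that test 19.7% of all genes had an unadjusted p under 0.05, and 2 of the 11 did. These were Mat2a, which encodes an enzyme that makes the methyl donor S-adenosylmethionine (0.25 ± 0.088, adjusted p 0.0670, mean count 814), and the folate enzyme gene Mthfd1 (0.29 ± 0.12, adjusted p 0.130, mean count 435), both in the authors' deposited table.

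Readers of methylation and the machinery downstream of TET had no called member. The methyl-CpG reader list also holds relatives named for a methyl-CpG-binding domain, whether or not they bind methylated CpG. The smallest p of that list were those of Zbtb33, which encodes Kaiso (0.28 ± 0.095, adjusted p 0.0582), and Mbd6 (-0.30 ± 0.11, adjusted p 0.0651). These 2 estimates had opposite directions in the authors' deposited table. Of 7 genes for proteins that bind unmethylated CpG through a CXXC domain, 6 had estimates below 0, with a median of -0.14. The smallest p in this list were those of Cxxc1 (0.19, adjusted p 0.0959) and the H3K4 methyltransferase gene Kmt2a (-0.21, adjusted p 0.0989) in the authors' deposited table. By the DESeq2 Wald test 4 of the 7 had an unadjusted p under 0.05, 1 higher and 3 lower, beside 19.7% of all genes. In base excision repair, which replaces the oxidised base, the uracil glycosylase gene Ung (0.31 ± 0.14) and the thymine DNA glycosylase gene Tdg (0.29 ± 0.14) had the smallest p in the authors' deposited table, and the median of 10 genes was -0.029. The TET cofactor and partner list, with enzymes that make or use 2-oxoglutarate and its competitors, had a median of 0.095 over 12 genes. Its genes of smallest p were Sdha (0.13, adjusted p 0.300) and Fh1 (0.20, adjusted p 0.306), which encode the succinate- and fumarate-consuming enzymes, in the authors' deposited table.

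Germline genes whose promoters are known to be silenced by DNA methylation in somatic cells had 10 of 14 estimates above 0 and a median of 0.12. Dazl, an RNA-binding protein gene of germ cells, was the called member at 1.17-fold in the authors' deposited table (0.23 ± 0.061, adjusted p 0.00997). The counts called in these 8 lists, 3 higher and 1 lower of 87, compare with 1.94% higher and 3.42% lower over all genes. None of the 4 called genes passed when the length, GC and abundance trend was removed (adjusted p 0.0806 to 0.859), with a t distribution of 6 degrees of freedom (0.439) or with the wider null SD of 1.45 that the bulk of the statistics shows (0.550 to 0.622). The t distribution called 0 and the null SD 5 of all 14853 genes, so other called genes failed there too. With the trend removed the log2 fold changes were 0.47 for Pclaf (from 0.55), -0.18 for Ehmt2 (from -0.23), 0.17 for Hells (from 0.27) and 0.038 for Dazl (from 0.23).

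**Figure D5:**
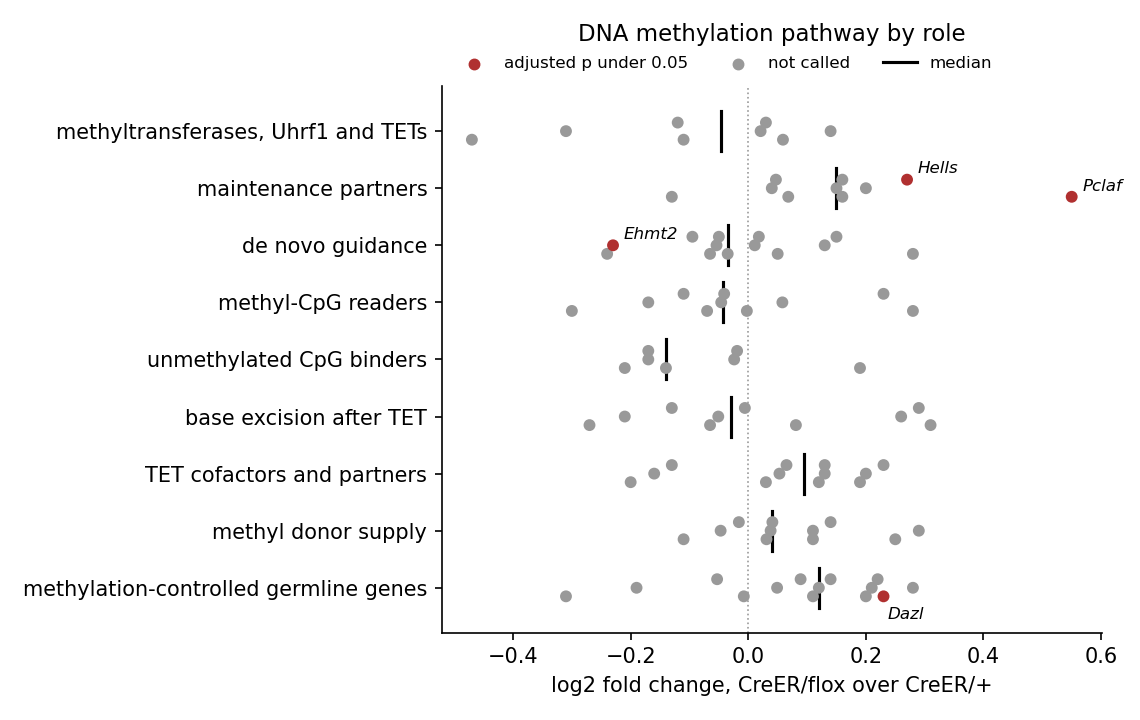
Log2 fold change of CreER/flox over CreER/+ (x axis) for each gene (points; red, adjusted p under 0.05; grey, not called) of the 8 methyltransferase, Uhrf1 and TET genes (top row) and of 8 lists of pathway genes, with the median of each row as a black bar. The top row has no red point, and the partners of maintenance methylation include Hells and Pclaf on the right.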

How the data were processed

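RNA sequencing libraries were made from 8 sorted samples with a stranded total RNA kit, per the labels' protocols. Per the submitters' processing notes, the tools were DESeq2, Bowtie, Bowtie2 2.0.0-6, TopHat2 2.0.4 and Trim Galore, and the builds GRCm38 and mm10. Which program counted reads, with which annotation and strand setting, is not stated in the labels. Per the file headers, the authors deposited a DESeq2 result: a mean normalized count signal, a log2 fold change with its SE, a Wald score, a p-value and an adjusted p-value. The deposited Wald score differed from log2 fold change over SE by at most 2.58e-07. Depth per library was not analysed here, so precision is given by the SEs.

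No model was fitted to expression values, which were not analysed per library; the fitted trend and null SD below use the deposited log2 fold changes and Wald scores. Members were matched by symbol. Other genes were matched by Entrez ID to RefSeq (GRCm38.p6), which held 14828 of 14853 rows. Lengths and GC content came from the longest GENCODE M21 transcript, found for 93.8% of rows. Intervals are 95% normal intervals. The members and lists were chosen with earlier results of these data known. Named genes are the members, Tert and, in each list, up to 4 called genes or the 2 of smallest p where none was called. A further 4 maintenance partners and 2 cell type markers were named after their values were seen. Mcam and Kit were named because the sort used their proteins. A gene first put in the methyl donor list is not reported here and enters no list count. Alternatives were thresholds of 0.01 and 0.1, a t distribution, an estimated null SD, adjustment over genes counted at 100 or more or with identical rows counted once, centring, and removal of a cubic trend with length, GC content and mean count in 13694 protein-coding genes. The steps were tested on simulated data. Software was Python 3.11.15 with matplotlib 3.10.9, scipy 1.17.1, numpy 2.4.6 and pandas 2.3.3.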

Additional observations from a re-analysis of the deposited data

How the results depend on the processing

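The count of methylation genes called was 0 with the DESeq2 Wald test and under each of 8 alternatives, and 0 had an unadjusted p under 0.05 in that test. The smallest adjusted p among them was 0.285 when only genes counted at 100 or more were adjusted over (5 of the 8), 0.317 at thresholds of 0.01 and 0.1, 0.449 with the trend removed, 0.525 with the t distribution and 0.920 with the estimated null SD. The 0.01 threshold, the t distribution and the null SD are stricter than the DESeq2 Wald test at 0.05, so none could have raised the count of 0. Both other thresholds use the adjusted p of that test. Among the 8 genes, the sign turned for Tet3 alone, from -0.12 to 0.039 (adjusted p 0.936) with the trend removed. The 4 called list genes all passed with adjustment over abundant genes, with identical rows counted once and with centring, and 2 passed at 0.01 (Hells and Dazl). At 0.1, 10 list genes were called, the 4 among them. The others were 1 higher and 1 lower of the methyl-CpG reader list, 1 higher and 2 lower of the unmethylated CpG binders and 1 higher of methyl donor supply. Over all genes, 796 calls (288 higher, 508 lower) became 264 at 0.01, 1340 at 0.1, 5 with the null SD and 0 with the t distribution (1652 at its unadjusted p under 0.05). With the trend removed, 392 of 13694 were called, 87 higher and 305 lower. Low counts limit Dnmt3l, Tet1 and Tet2, for which an estimate under 2.49-fold would not have been called at their SEs. No paired analysis was possible because the table holds only the authors' comparison and no values per library. For the same reason no replicate could be left out.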
